A study of Mus musculus with 18 samples.

Results

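RAD21 binding was examined at 9 genes of MHC class II antigen presentation, which were H2-Aa, H2-Ab1, H2-Eb1, H2-DMa, H2-DMb1, H2-Oa, H2-Ob, Ciita and Cd74. They are 9 of 22225 protein-coding genes of the annotation. A peak was counted for a gene when its centre lay in the gene body or within 20 kb of it on mouse assembly mm9. Peaks of the 12 deposited lists that shared at least 1 bp were joined into 18957 sites, of which 15 lay at these genes. A site near several of the genes was counted once.

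RAD21, a subunit of the cohesin ring, was measured by ChIP-seq in B cells purified from spleens of mice named C57BL/6 in the labels and C57BL/6J in the study's methods, 8 to 10 weeks old, with each replicate pooled from 12 mice. The study asked how cohesin binding changes when B cells are activated for class switching. Resting B cells were taken without culture. The 48 h cells had been stimulated for 48 h with 50 µg/ml LPS and 2 ng/ml IL-4, and the 96 h cells for 96 h with the same agents and then enriched for cells that carry IgG1, so that time and enrichment cannot be told apart at 96 h. Each time point had 3 replicate lists and 1 list called on the merged replicates, which is called pooled here and is no further replicate.

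MHC class II molecules present peptides from taken-up proteins to CD4+ T cells, and B cells carry them at rest. H2-Aa and H2-Ab1 encode the chains of I-A, and H2-Eb1 encodes the beta chain of I-E. Cd74, the invariant chain, guides class II molecules to endosomes. There H2-DM, made from H2-DMa and H2-DMb1, exchanges the invariant chain remnant for antigenic peptides, and H2-O, made from H2-Oa and H2-Ob, restrains H2-DM. Ciita encodes the coactivator on which transcription of these genes depends, and IL-4 is known to raise class II on B cells. In many loci cohesin is held at sites bound by CTCF, a zinc finger protein known for insulator function, and the direction of the CTCF motif bears on which sites form loops.

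The DNA at the sites is shown first, because 14 of the 15 sites held the sequence that was most typical of RAD21 sites elsewhere in the genome. A motif was derived from 838 sites that 6 or more of the 9 replicates called, on chromosomes other than 16, 17 and 18, which hold the genes described here. Its letters were NNNCCACNAGGGGGCGCNNN, which are those of the known CTCF motif. CTCF itself was not measured, and a match describes letters only. Both strands were searched within 100 bp of the site centre. In the sequences below the capitals mark the 20 matched bases, read 5′ to 3′ on the strand named, from assembly mm9. They are the 4 sites called in 5 or more replicates, the upstream site in Ciita and the site in the first intron of H2-Ab1.
H2-DMa exon, chr17:34272356-34272385, forward strand: ccgacCTTCCACCAGGGGGCGGAGGtctcc
The second past H2-DMb1, chr17:34306436-34306465, reverse strand: agttgTAGCCTGTAGGTGTCAGCAAagact
The third past H2-DMb1, chr17:34307893-34307922, forward strand: acattTGTCCACTAGGTGGCGCCAAagaca
Upstream of H2-Ob, chr17:34372105-34372134, reverse strand: ttacaTGGCCACCAGATGGCACCAGactca
Ciita intron, upstream one, chr16:10521468-10521497, reverse strand: aaggtCTTCCAGAAGGTGGCAGTGTgagaa
H2-Ab1 intron, chr17:34401160-34401189, reverse strand: gccctGACCCCCTAGGGGGCACTCGttctc

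The site upstream of H2-Ob had the highest motif score of the 15, at 24.3 log2 odds, and its match was centred 2 bp from the middle of the site. The third site past H2-DMb1 scored 22.3, the H2-DMa exon 18.8 and the second site past H2-DMb1 14.4. The H2-Ab1 intron scored 13.4. A score of 9.01 counted as a match, the level that 5% of windows 1 kb from sites passed. The site in the third intron of H2-Aa was the one without a match, at 6.82. Of all 2074 sites on chromosomes 16 to 18, 65.0% matched, and 88.8% of the 170 called in 5 or more replicates did. Of the windows 1 kb away on these chromosomes 5.71% matched. No site at the 9 genes held a tandem repeat, against 19.9% of all sites on these chromosomes. Both shares over all sites rested on 48 h replicate 2, a library that stands apart as described further on. Without the sites whose single replicate was that one, 87.4% of 1530 sites matched and 5.16% held a tandem repeat, so that 14 of 15 and 0 of 15 were near the usual level.

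**Figure D1:**
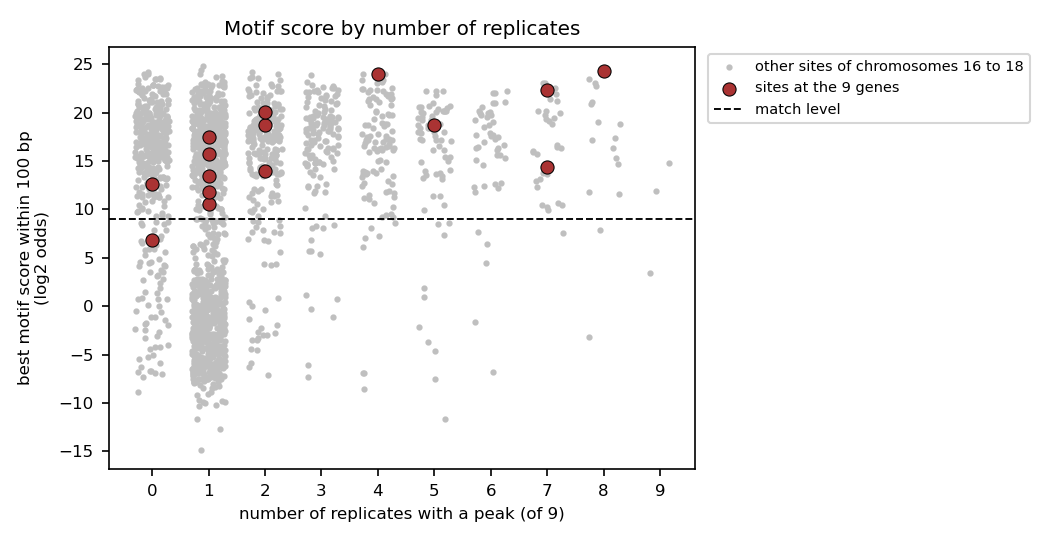
Best motif score within 100 bp of the site centre, in log2 odds, against the number of replicates with a peak for 15 sites at the 9 genes (red) and the other sites of chromosomes 16 to 18 (grey, spread sideways within each number). The dashed line is the match level of 9.01, and 14 of the 15 red points lie above it.

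The 15 sites differed in how often they were called. Most were found in few replicates, and none was found in all 9. A site called in 5 or more of the 9 replicates is named recurrent here, and 4 of the 15 sites were recurrent, beside 8.28% of all sites. These were 1 site in H2-DMa, a close pair past the end of H2-DMb1 and 1 site upstream of H2-Ob, all on chromosome 17. All sites include 5233 called in 48 h replicate 2, of which 470 had a peak in another replicate. The rest of them cannot be recurrent, which lowers the share over all sites. Of the 15 sites a further 9 had a peak in 1 to 4 replicates. Those in the H2-Ob intron at chr17:34384127-34384283 and in the H2-Aa intron at chr17:34409175-34409347 appeared in pooled lists alone. Scores are given as percentiles, where a peak at percentile 90 scored above about 90% of the peaks of its own list, since a score is not comparable between lists. A percentile also depends on the length of its list, so differences between lists are not differences in peak strength alone. Rank 595 in resting replicate 2 was percentile 27.5, and rank 598 in resting replicate 3 was percentile 83.2.

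**Figure D2:**
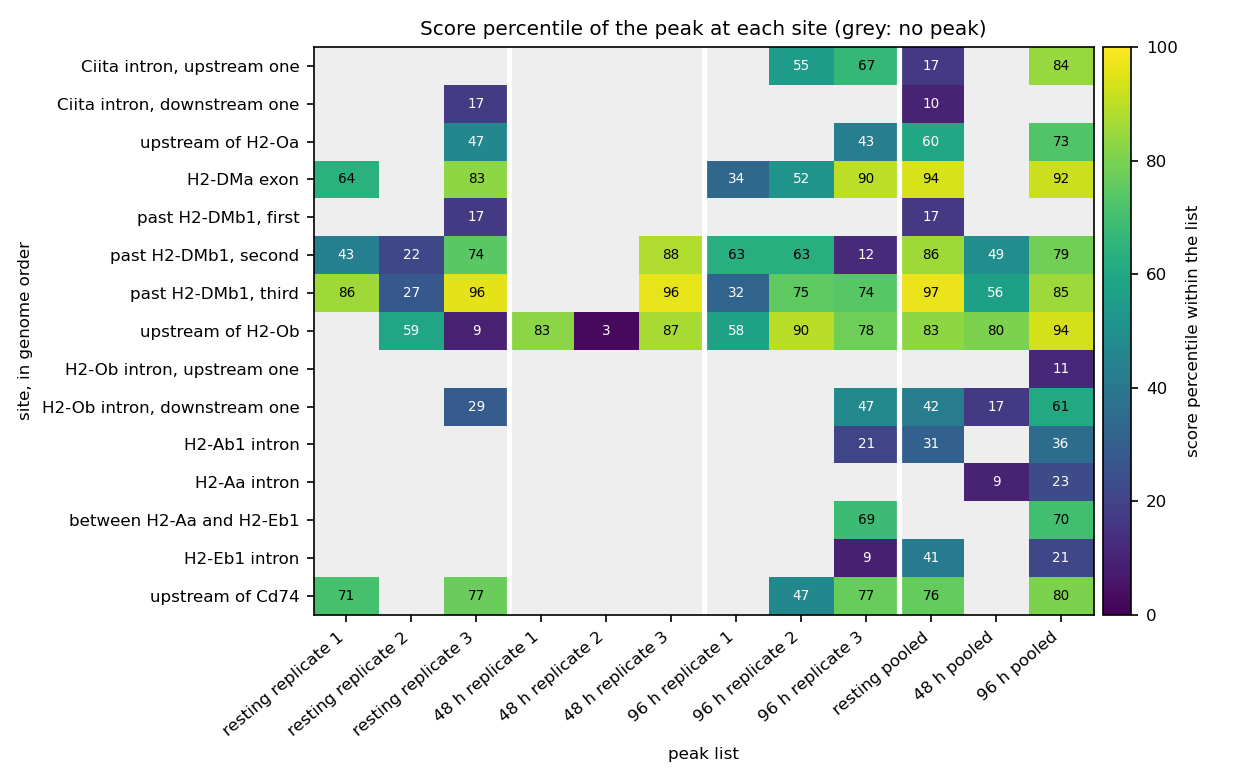
Score percentile within each of the 12 lists (columns) of the peak at each of the 15 sites (in genome order), with grey where the list has no peak. The site upstream of H2-Ob is filled in 8 of 9 replicates, and both recurrent sites past H2-DMb1 in 7.

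H2-Ob encodes the beta chain of H2-O, and the site upstream of it was the one found most often. It spanned chr17:34371962-34372274, intergenic and 3730 bp upstream of the H2-Ob start. A peak was present in 8 of 9 replicates, a number reached by 1.20% of all sites, those particular to 48 h replicate 2 included. In resting cells replicate 1 had no peak there, replicate 2 had one at percentile 58.7 and replicate 3 at 9.35. At 48 h the percentiles were 82.5, 2.57 and 86.8. At 96 h they were 57.8, 89.6 and 77.9. The site was thus called at every time point, with a low rank within the list in 1 resting and 1 48 h replicate. The peak of 48 h replicate 2, at chr17:34371992-34372049, did not reach the motif match at chr17:34372110-34372129. That library stands apart from the others, as described further on. In the pooled lists its peaks stood at percentiles 83.1, 80.4 and 93.5 for resting, 48 h and 96 h.

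H2-DMb1 encodes the beta chain of H2-DM, and its neighbour H2-DMb2 is a close paralogue, so that reads within them may not be placed with certainty. Neither gene body held a site, and whether read placement bears on this was not tested. Past the end of H2-DMb1 lay 3 intergenic sites, of which the second and the third were recurrent. Their centres were 1497 bp apart. The second, at chr17:34306301-34306580, lay 16424 bp downstream of the H2-DMb1 start. The third, at chr17:34307761-34308113, lay 17920 bp downstream of that start and 16561 bp upstream of the start of Tap1, a subunit of the peptide transporter of class I presentation. Their motif matches lay on opposite strands.

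Both sites of this pair were present in all resting and all 96 h replicates and in 1 of 3 at 48 h. The second site stood at percentiles 43.1, 21.6 and 74.3 in resting replicates 1, 2 and 3, and at 63.1, 62.9 and 12.2 at 96 h. In 48 h replicate 3 it stood at 88.2. The third site ranked higher in resting replicates, at 85.7, 27.5 and 95.9, and stood at 32.2, 75.3 and 74.1 at 96 h and at 96.4 in 48 h replicate 3. The 48 h list that held the pair therefore ranked both near its top, whereas the other 48 h lists had no peak at either. In the pooled lists for resting, 48 h and 96 h the second stood at 85.6, 48.8 and 78.6 and the third at 97.2, 56.5 and 85.4. The first of the 3 sites, at chr17:34301498-34301734, had a peak in resting replicate 3 at percentile 16.8 and in the pooled resting list at 16.5.

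H2-DMa encodes the alpha chain of H2-DM. Its site at chr17:34272250-34272534 lay over the untranslated first exon, with the centre 265 bp downstream of the start, and was the only recurrent site in a gene body among the 15. Resting replicates 1 and 3 had a peak at percentiles 63.9 and 83.2, and replicate 2 had none. No 48 h replicate and no pooled 48 h list had a peak. At 96 h the percentiles were 34.0, 51.9 and 90.1. The 48 h and 96 h replicates did not overlap here, a pattern of all 96 h and no 48 h replicates that 5.69% of the sites called in either group showed and that 1 of 11 sites at the 9 genes showed. Fisher's exact test of 3 against 0 replicates gave a two-sided p of 0.1, the smallest that 3 against 3 allows. The pooled resting and 96 h lists held it at percentiles 94.1 and 91.9.

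H2-Oa, the alpha chain of H2-O, had 1 site, intergenic and 14548 bp upstream of its start at chr17:34214614-34214860. It was called in resting replicate 3 at percentile 46.5 and in 96 h replicate 3 at 43.0, which were the longest lists of their groups. Inside H2-Ob, the fifth intron held a site at chr17:34386914-34387167 that these same replicates called at percentiles 29.0 and 47.2. All pooled lists held this intron site, at 41.9, 17.1 and 60.9 in the order of time.

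At the genes of the classical chains, the 4 sites in or just beside them were called in at most 1 replicate each. H2-Ab1 had a site in its first intron at chr17:34401056-34401266, 1007 bp downstream of the start, called in 96 h replicate 3 at percentile 20.8 and in the pooled resting and 96 h lists at 31.0 and 35.5. H2-Eb1 had a site in its second intron at chr17:34450350-34450614, called in the same replicate at 8.91 and in these pooled lists at 41.3 and 21.3. A further site lay between H2-Aa and H2-Eb1, at chr17:34436543-34436779 in the noncoding gene Gm20513, 6167 bp upstream of the H2-Eb1 start. It stood at 68.6 in 96 h replicate 3 and at 69.6 in the pooled 96 h list. The H2-Aa intron site stood at 9.46 in the pooled 48 h and 23.1 in the pooled 96 h list. None of the 4 sites was called in a resting or 48 h replicate, and replicate peaks at 3 of them came from 96 h replicate 3, the longest of all lists with 8579 peaks.

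Ciita had 2 sites, both in intron 15, with centres 41244 and 42835 bp downstream of the annotated start. The upstream one, at chr16:10521349-10521612, was called in 96 h replicates 2 and 3 at percentiles 54.9 and 66.6 and in no resting or 48 h replicate. In the pooled lists it stood at 84.4 at 96 h and at 16.5 in resting cells, with no peak at 48 h. The downstream one, at chr16:10522991-10523153, showed the other order, with a peak in resting replicate 3 at 17.4 and in the pooled resting list at 9.53. With 2 of 3 against 0 of 3 replicates, Fisher's exact test of the upstream site gave a two-sided p of 0.4 between 96 h and either other group. No other site was found in the gene body or within 20 kb of it, its start included.

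Cd74 had a single site, intergenic and 16602 bp upstream of its start at chr18:60946749-60947050, nearer to the start of Rps14, a ribosomal protein gene. Its motif scored 23.9 log2 odds. Resting replicates 1 and 3 had peaks at percentiles 70.7 and 77.3, and 96 h replicates 2 and 3 at 46.7 and 76.8. No 48 h list held a peak there, including the pooled one. The pooled resting and 96 h lists had it at 76.4 and 80.1. Fisher's exact test of 2 against 0 replicates gave a two-sided p of 0.4.

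On chromosome 17 the sites formed a series along the class II region, which was taken from 20 kb before H2-Oa to 20 kb past H2-Eb1, chr17:34209285-34473144. This stretch of 263.86 kb held 14 sites, of which 2, both within Tap2, were not within 20 kb of any of the 9 genes. In 9761 windows of the same length over the genome the median was 1 site, and 0.0922% of windows held at least 14. The region is dense in genes, with 17 starts of protein-coding genes against a median of 1 per window. Among the 56 windows with at least 17 starts the median was 6 sites, and 3.57% held at least 14.

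Of the 14 sites in this region 5 were intergenic and 9 lay in gene bodies. The recurrent sites fell at 3 of the 5 intergenic and at 1 of the 9 genic sites. Over the genome 57.7% of recurrent sites were intergenic, near the 56.2% of all sites. The recurrent intergenic sites were the pair past H2-DMb1 and the site upstream of H2-Ob, and they bordered the stretch that holds Psmb9, Tap1, Psmb8 and Tap2, genes of class I peptide supply. Within that stretch the 2 sites of Tap2 were called in 1 and 0 replicates. At the 9 genes together 6 of 15 sites were intergenic, against 56.2% of all sites. Whether any of these sites acts as an insulator was not measured.

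The matches ran in both directions along the region. Forward matches lay upstream of H2-Oa, in the H2-DMa exon, at the third site past H2-DMb1, at both H2-Ob intron sites and between H2-Aa and H2-Eb1. Reverse matches lay at the first and second sites past H2-DMb1, upstream of H2-Ob and in the introns of H2-Ab1 and H2-Eb1. Both Ciita sites were reverse, which is against the direction of the gene, and the Cd74 site was forward, the direction of its gene.

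Sites at the edge of the 20 kb limit changed which gene was credited. The H2-Ob intron site at chr17:34386914-34387167 was just inside for H2-Aa, 19.2 kb from its body, while the other site of that intron was just outside at 22.1 kb. Beyond H2-Eb1 an intergenic site called in 6 of 9 replicates, at chr17:34486399-34486699, lay 33.4 kb away and was not counted. For Cd74 a site called in 7 of 9 replicates lay 36.5 kb away, outside the limit.

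All 9 genes had at least 1 site, as did 55.3% of protein-coding genes. The median was 2 sites per gene over the 9 and 1 over all coding genes. H2-Ob had 5 sites, H2-Aa, H2-Ab1 and H2-DMb1 had 4 each, Ciita and H2-Eb1 had 2 each, and H2-DMa, H2-Oa and Cd74 had 1 each. At least 4 sites were found at 4 of the 9 genes and at 3.43% of all genes. Neighbouring class II genes share sites, so the 9 genes are not 9 independent counts. Their median length was 8799 bp, against 15538 bp over all coding genes.

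**Figure D3:**
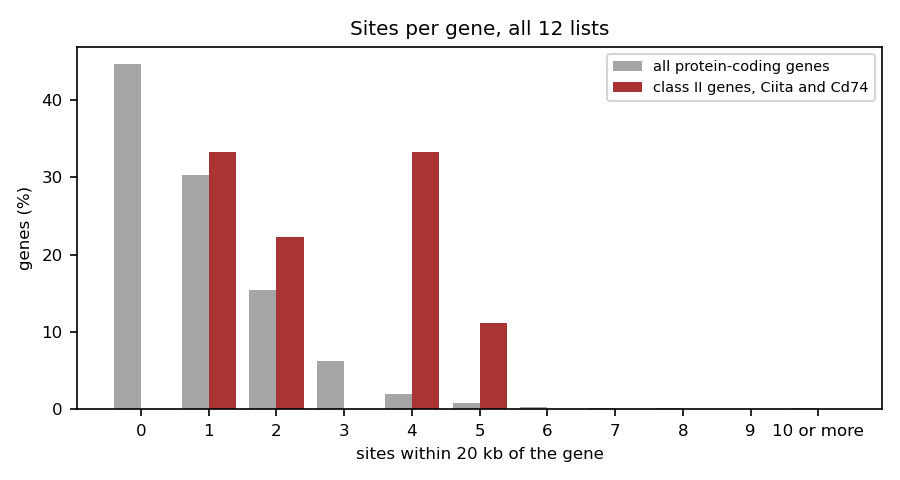
Percentage of genes (vertical axis) by number of sites within 20 kb (horizontal axis), for all 22225 protein-coding genes in grey and the 9 class II genes, Ciita and Cd74 in red. None of the 9 has 0 sites, and 4 of them have 4 or 5.

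By time point, 8 of the 9 genes had a site in a resting replicate, beside 21.1% of all coding genes. In a 48 h replicate 2 of the 9 did, H2-DMb1 and H2-Ob, beside 22.5%. In a 96 h replicate all 9 did, beside 39.4%. H2-Eb1 was the gene without a site in resting replicates. H2-Aa and H2-Ab1 were counted at rest through a single peak of resting replicate 3, in the H2-Ob intron at chr17:34386914-34387167, which also counts for H2-Ob. At rest and at 96 h these counts rested on the longest list of the group, and at 48 h on replicate 3, which was not the longest. Without resting replicate 3, 4 of the 9 genes had a site in a resting replicate, beside 12.8% of all, and without 96 h replicate 3, 5 of the 9 had one at 96 h, beside 25.7%. Without 48 h replicate 3 the gene left at 48 h was H2-Ob, 1 of 9, beside 19.2%, and without 48 h replicate 2 there were still 2 of 9, beside 12%. Per replicate, 3, 2 and 8 of the genes had a site in resting cells, 1, 1 and 2 at 48 h, and 3, 5 and 9 at 96 h.

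The number of sites at the 9 genes was 4, 3 and 9 in the resting replicates, 1, 1 and 3 at 48 h and 4, 6 and 11 at 96 h. The means were 5.33 ± 3.21, 1.67 ± 1.15 and 7 ± 3.61 (SD, n = 3 each). The 96 h replicates all lay above the 48 h replicates, while the resting group overlapped both others. The difference of 5.33 sites between 96 h and 48 h exceeded the SD within these groups, 2.68 when pooled. That of 1.67 between 96 h and resting cells did not exceed its pooled SD of 3.42. It exceeded the SD of 1.53 taken over differences between same-numbered replicates. From resting cells to 48 h the mean dropped by 3.67 sites, against an SD of 2.42. Without 96 h replicate 3 the difference between 96 h and 48 h was 3.33 sites, and that between 96 h and resting cells turned to -0.333. Without resting replicate 3 the difference of 48 h minus resting cells was -1.83.

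The lists differed in length, from 821 peaks in resting replicate 2 to 8579 in 96 h replicate 3, so the number was also set against the list. The share of a list's peaks at these genes was 0.191%, 0.365% and 0.252% in resting cells, 0.0650%, 0.0190% and 0.192% at 48 h, and 0.143%, 0.132% and 0.128% at 96 h. The means were 0.269% ± 0.0887, 0.0920% ± 0.0896 and 0.134% ± 0.00743 (SD, n = 3 each). By share the resting replicates all exceeded the 96 h replicates, whereas by number 96 h had the higher mean. The exact 95% binomial interval of resting replicate 2 ran from 0.0754% to 1.06% and that of 48 h replicate 1 from 0.00165% to 0.362%, so single lists were imprecise. These intervals cover counting error only. Without resting replicate 2 the mean share at 96 h minus resting was -0.0870 percentage points, from -0.135 with it.

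When each replicate was limited to its 821 highest-scoring peaks, 3 of these sites remained in each resting replicate. At 48 h the numbers were 1, 0 and 3, and at 96 h they were 0, 1 and 0. The third site past H2-DMb1 was kept in every resting replicate, at ranks 300, 595 and 146. At 48 h it was kept in replicate 3 at rank 57, beside the second site at 185 and the site upstream of H2-Ob at 206. The last was also the single site kept at 96 h, at rank 452 in replicate 2. The direction between 96 h and the other groups thus turned with list length.

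**Figure D4:**
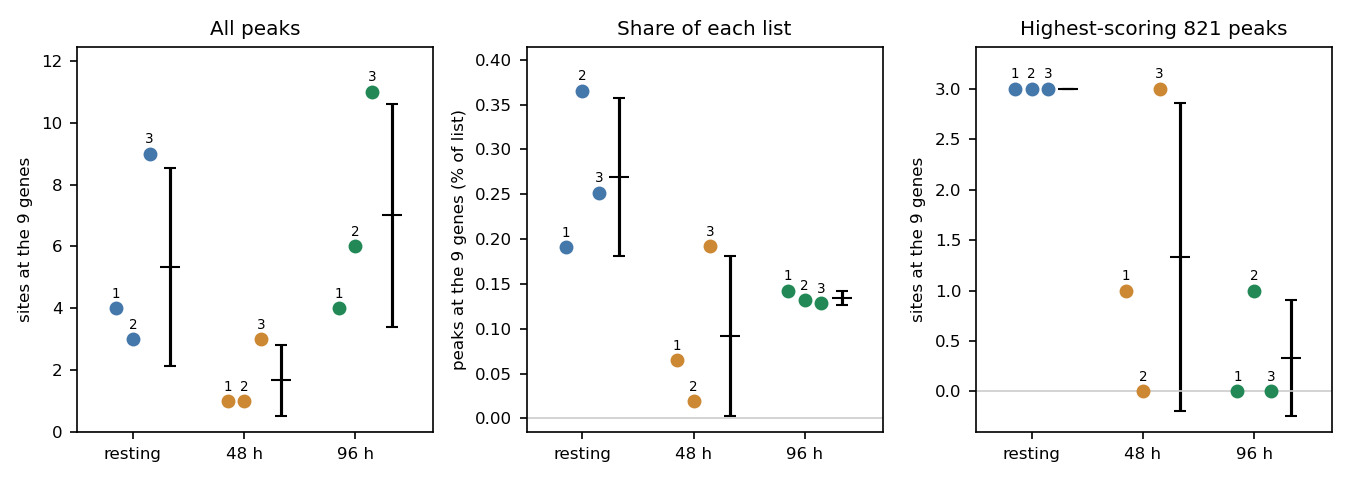
Sites at the 9 genes in each replicate (left), the share of each list's peaks at them in percent (middle), and the sites left among the 821 highest-scoring peaks (right), by time point. Points are replicates with their numbers, and bars give the mean and SD of 3 replicates. On the left the 96 h points, from 4 to 11, all lie above the 48 h points, and on the right they lie at 0 or 1, below the resting points at 3.

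Site by site, the time points were compared in pairs, each over the sites with a peak in a replicate of either group. The shares of all sites that involve 48 h rested on 1 library, as described next. Of the 9 sites with a peak in a resting or a 48 h replicate, 8 were called in more resting than 48 h replicates, against 32.7% of all such sites, and 1, the site upstream of H2-Ob, in more 48 h replicates, against 59.7%. Of 11 with a peak in a 48 h or a 96 h replicate, 10 were called in more 96 h replicates, against 59.6%, and none in more 48 h replicates, against 35.6%. The site upstream of H2-Ob was called in all replicates of both, in 48 h replicate 2 at percentile 2.57. Between resting cells and 96 h, 6 of 13 were called in more 96 h replicates, against 74.5%, and 2 of 13, the first site past H2-DMb1 and the downstream Ciita site, in more resting replicates, against 11.7%. Apart from the H2-DMa exon, no site was called in all replicates of one group and none of another. Over all sites that pattern was seen at 1.27% for resting without 48 h, 0.0606% for 48 h without resting, 0.0876% for resting without 96 h, 5.85% for 96 h without resting and 0.0206% for 48 h without 96 h.

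The background at 48 h rested on 1 library. In 48 h replicate 2, 8.98% of sites were shared with another replicate, against 64.5% to 97.4% in the other 8. Of its 598 sites on chromosomes 16 to 18, 5.18% matched the motif, against 86.5% to 92.1% in the others. A tandem repeat was found at 59.5% of these sites, against 2.30% to 6.74% in the others. Its single peak at the 9 genes was the one upstream of H2-Ob, 58 bp long. Without this replicate, by shares of replicates, 8 of 9 sites were called in a larger share of resting than 48 h replicates, against 62.9% of all sites, and 1 of 9 in a smaller share, against 32.4%. Likewise 10 of 11 were called in a larger share of 96 h than 48 h replicates, against 86.9%, and 0 of 11 in a smaller share, against 8.58%. The counts at the 9 genes were then close to the background at 96 h against 48 h. Without resting replicate 3, 4 of 5 sites were called in a larger share of resting than 48 h replicates, against 23.5% of all sites, and 9 of 11 in a larger share of 96 h than resting replicates, against 87.6%. Without 96 h replicate 3, 5 of 6 were called in a larger share of 96 h than 48 h replicates, against 47.1%, and 3 of 10 in a larger share of 96 h than resting replicates, against 64.3%, with 5 of 10 the other way, against 30.6%. The 23.5% and the 47.1% still included the sites of 48 h replicate 2. The distance of 4 of 5 and 5 of 6 from these shares therefore cannot be read as particular to the 9 genes.

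In the pooled lists 12, 5 and 13 of the sites were present in resting cells, at 48 h and at 96 h, out of 5690, 5579 and 12806 peaks. All 3 lists held 4 of the 15, beside 15.2% of all sites in pooled lists, and these were the pair past H2-DMb1, the site upstream of H2-Ob and 1 H2-Ob intron site. Resting and 96 h but not 48 h held 6, beside 16.1%. These were the upstream Ciita site, the H2-Oa site, the H2-DMa exon, the H2-Ab1 and H2-Eb1 introns and the Cd74 site. Only the resting list held 2, beside 4.04%, only the 96 h list held 2, beside 44.5%, and no site was in the 48 h list alone, beside 13.5%. The H2-Aa intron site was the 1 in the 48 h and 96 h lists but not the resting list, beside 5.75%. None was in the resting and 48 h lists alone, beside 0.879%. Per the study's methods, 48 h replicate 2 was merged into the pooled 48 h list. On chromosomes 16 to 18, 51.1% of pooled 48 h sites matched the motif, against 85.2% at rest and 90.5% at 96 h. A tandem repeat was found at 30.7%, against 5.81% and 4.64%. All shares of all sites given here count the sites of the pooled 48 h list. That no site was in it alone, beside 13.5%, therefore cannot be read as particular to these genes.

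Other genes of the pathway were read from a list of 28, of which 27 were found by name. A site within 20 kb was present at 21 of these, or 77.8%, beside 55.3% of all coding genes, and a recurrent site at 9. Of these, 9 with a site and 8 with a recurrent site were neighbours in the class II region, most of which share sites with the class II genes themselves. Of the 9 class II genes, Ciita and Cd74 3 had a recurrent site (H2-DMa, H2-DMb1 and H2-Ob), beside 8.57% of all coding genes. The regulators of class II transcription, which bind the promoter boxes with which CIITA works, were near the share of all genes. Of Rfx5, Rfxap, Rfxank, Nfya, Nfyb, Nfyc and Creb1, 4 of 7 (57.1%) had a site, 1 (Nfyc) had a replicate peak, and none had a recurrent site. Of 8 genes of processing and turnover 5 (62.5%) had a site, also near that share. March1, the ubiquitin ligase that takes class II molecules from the cell surface, had 9 sites and the one recurrent site of this group, in intron 4 at chr8:68846954-68847295. It was called in all resting and all 96 h replicates and in 1 of 3 at 48 h, the same numbers as the pair past H2-DMb1. March1 is also far longer than the class II genes.

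The 9 neighbours in the class II region all had a site and 8 of them a recurrent one, which for H2-DMb2, Psmb9, Tap1, Tap2 and Brd2 were sites already counted at the class II genes. For H2-Eb2, H2-Ea-ps and Btnl2 it was the intergenic site beyond H2-Eb1, called in 2 resting, 1 48 h and 3 96 h replicates. Around Ciita, the neighbours Dexi, Clec16a and Socs1 each had a site and none a recurrent one.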

How the data were processed

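The authors sequenced RAD21 ChIP and input libraries from 9 replicates, 3 at each time point. Per the labels, reads were aligned to mm9 with Bowtie2. Per the methods of the study, each read set was randomly thinned to an equal number of unique positions, replicates were merged for the pooled lists, and peaks were called with MACS 2 at a false discovery rate of 0.05. The deposited lists give positions and a score per peak. The statistic behind the score is not given in the sources used here, so the deposited score served to order the peaks of 1 list. One alternative set a single minimum score over all replicate lists, which assumes that scores are comparable between them. Read depth per list is not known from the lists, and input signal was not analysed here. A peak missing from a list means that it did not pass that threshold.

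Peaks sharing at least 1 bp were joined into sites. Genes were taken from GENCODE M1, on the same assembly, and peaks were assigned by their centre. Score percentiles are mid-ranks. The reference held every peak within its chromosome ends. The windows of 263.86 kb were laid end to end over the chromosomes. Analyses used Python 3.11.15, numpy 2.4.6, scipy 1.17.1 and matplotlib 3.10.9, and the site and motif steps were tested on simulated data. The rule for names covered the 9 members, all their sites, and pathway genes with a recurrent site. The other listed pathway genes are named in their counts, and Rps14 and Gm20513, chosen after the values were seen, for position.

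The members, the gene lists and the limits were chosen with earlier results of these data known. Exact permutation tests of the number and share of sites per replicate had been planned. They were computed and then left out after their values had been seen, because a p for a sum over genes chosen with results known is not interpretable. Those comparisons are given as means, SD and overlap, and the Fisher's exact tests of single sites cannot pass 0.05 with 3 against 3. Whether replicates came from separate days is not stated. The windows of equal length, the gene and site counts without single replicates and the motif shares without sites particular to 48 h replicate 2 were added after the data were seen. Pathway and neighbour genes were matched by symbol.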

Additional observations from a re-analysis of the deposited data

How the results depend on the processing

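The number of sites per replicate fell by 3.67 from resting cells to 48 h, and this difference kept its direction in all 18 alternatives. Of these, the replicate block and leaving out a 96 h replicate could not change it. Other rules for joining peaks and assignment by any overlap also left it at -3.67. It was -1.33 with gene bodies or 5 kb, -1.67 with lists of equal length or the stricter scores given below, and -1.83 without resting replicate 3. Peak lists hold no depth and no signal below the threshold, which limits every absence of a peak. Per the study's methods each read set had been thinned to an equal number of positions. Counting gene bodies alone left 8 sites, moved the share at 48 h minus resting to -0.0438 percentage points and turned that at 96 h minus resting to 0.0021. With 5 kb these were -0.0537 and -0.0340, and with 50 kb the number at 96 h minus 48 h was 8.67. For 96 h minus resting 50 kb gave 4.33. The number at 96 h minus 48 h was 2.67 with gene bodies or 5 kb. Scores of at least 10.65 in replicates and 13.73 in pooled lists left 9 sites, with shares of -0.0237 at 48 h minus resting and -0.0743 at 96 h minus 48 h, the latter reversed from 0.0422. With lists of equal length the numbers at 96 h minus resting and minus 48 h turned to -2.67 and -1, and the shares were -0.325 and -0.122. By construction this setting removes more of the longer lists. For the other settings the cause was not tested. Leaving out each replicate gave -4.83 to -1.83 for the number at 48 h minus resting, 3.33 to 6.83 at 96 h minus 48 h and -0.333 to 3.50 at 96 h minus resting, the last 2 lowest without 96 h replicate 3. At 96 h minus resting it was 3.50 without resting replicate 3, 3.17 without 96 h replicate 1, 1 without resting replicate 1 and 0.5 without resting replicate 2. For shares the ranges were -0.227 to -0.129, 0.0057 to 0.0922 and -0.174 to -0.0870. The share at 96 h minus 48 h was lowest without 48 h replicate 2 and highest without 48 h replicate 3, and that at 96 h minus resting was nearest to 0 without resting replicate 2. A motif level passed by 1% of windows, 15.6 log2 odds, left 8 matches (53.3%), beside 45.0% of all sites on chromosomes 16 to 18, or 60.9% without those whose single replicate was 48 h replicate 2.

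Correlations of the deviations of same-numbered replicates ran from -0.259 to 0.314, and those of different numbers from -0.348 to 0.340. Of the same-numbered pairs 3 of 9 passed 0.1. Of the 18 best matches, each chosen among 3 replicates of another time point, 7 had their own number. By number of sites at the 9 genes, replicate 3 was nonetheless the highest of each group, with 9, 3 and 11. With the replicate block the differences stayed the same by construction. They were -3.67 for 48 h minus resting, 1.67 for 96 h minus resting and 5.33 for 96 h minus 48 h. The SD over the differences within numbers was 2.08, 1.53 and 2.52 in that order. Score percentiles at sites called in every replicate were not compared, since no site at these genes was called in all 9.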
